A study of Homo sapiens with 7 samples.

Results

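The let-7 family was followed across 7 microRNA captures from A375, an established human melanoma cell line. Its members were taken by their human mature names, hsa-let-7a-5p, hsa-let-7b-5p, hsa-let-7c-5p, hsa-let-7d-5p, hsa-let-7e-5p, hsa-let-7f-5p, hsa-let-7g-5p, hsa-let-7i-5p and hsa-miR-98-5p, written below without the species prefix. All 9 were found among the 480 mature microRNA names in the deposited table. Every library came from A375 cells harvested 24 h after seeding, fixed in 1% formaldehyde for 10 min and processed by miR-CATCHv2.0, which pulls down an mRNA with probes and recovers the microRNAs attached to it. The ODD group (3 captures) and the EVEN group (3 captures) used 2 sets of probes against the 3′ UTR of BRAF-X1, an mRNA isoform of the kinase BRAF, and both sets are called X1 probes. The remaining capture, the control group, used scrambled probes. Its sample description carries the same number as those of ODD and EVEN replicate 3. The other captures carry other numbers, each shared by the ODD and EVEN captures of the same replicate. The labels do not say what this number marks. The captures address which microRNAs are attached to BRAF-X1. Nothing in the labels says that the captures came from separate cultures, so the p-values below measure only the spread between these captures, which may be technical.

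MicroRNAs are short RNAs that guide Argonaute proteins to mRNAs, mostly by pairing of their seed, the bases just after the first one, with a site in the 3′ UTR. The let-7 microRNAs are abundant in differentiated cells and are known as repressors of growth genes such as RAS, MYC and HMGA2. LIN28 proteins block their maturation in embryonic cells and in some tumours. Because the members share a seed, they are predicted to recognise largely the same sites, and a capture of an mRNA can bring down several of them.

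The mature sequences are shown because they say how closely the members resemble each other, which bears on how well reads can be told apart. They are RefSeq's (build GRCh38.p14), which held all 9 names; capitals mark the seed, bases 2 to 8.
let-7a-5p: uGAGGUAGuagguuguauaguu
let-7f-5p: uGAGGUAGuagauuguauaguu
let-7e-5p: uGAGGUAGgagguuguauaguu
let-7c-5p: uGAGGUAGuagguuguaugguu
let-7b-5p: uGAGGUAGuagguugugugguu
let-7d-5p: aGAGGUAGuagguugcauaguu
let-7g-5p: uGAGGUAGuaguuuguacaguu
let-7i-5p: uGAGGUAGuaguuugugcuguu
miR-98-5p: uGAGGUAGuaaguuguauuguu
All 9 are 22 bases long and carry the seed GAGGUAG, so they form 1 seed group. The 9 share 14 of the 22 positions, and 8 positions vary. Counted from 1 at the 5′ end, with the base of let-7a-5p first, let-7f-5p differs from let-7a-5p by G12A, let-7e-5p by U9G and let-7c-5p by A19G. let-7c-5p and let-7b-5p also differ at a single position, and these 4 of the 36 pairs are the closest. let-7i-5p is the farthest from let-7a-5p, with 4 differences (G12U, A17G, U18C and A19U). RefSeq holds 2 further microRNAs with this seed, miR-4458 and miR-4500, and neither name is in the deposited table. miR-202-3p, whose sequence resembles let-7, is not in it either.

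The members come from 12 loci, placed here by RefSeq on GRCh38.p14; the build behind the deposited values is not given in the sources used here. let-7a-5p has 3 loci, at chr9:94175962-94175983 (plus strand), chr11:122146568-122146589 (minus) and chr22:46112752-46112773 (plus). let-7f-5p has 2, at chr9:94176353-94176374 (plus), beside the first let-7a locus, and at chrX:53557246-53557267 (minus). let-7d-5p lies at chr9:94178841-94178862 (plus), in the same long noncoding gene MIRLET7A1HG as the chromosome 9 copies of let-7a and let-7f. miR-98-5p (chrX:53556299-53556320, minus) lies with the second let-7f copy inside the span of HUWE1. let-7b-5p (chr22:46113691-46113712, plus) shares MIRLET7BHG with the third let-7a copy. let-7c-5p (chr21:16539838-16539859, plus) lies in MIR99AHG, let-7e-5p (chr19:51692793-51692814, plus) in the span of SPACA6, let-7g-5p (chr3:52268336-52268357, minus) in that of WDR82 and let-7i-5p (chr12:62603691-62603712, plus) in MIRLET7IHG. These spans are whole genes, and exons were not resolved.

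The libraries were shallow. Whole reads recovered from the deposited RPM (reads scaled to 1000000 per library) came to 4049 to 35508 per X1-probe library and 4647 for the scrambled library, where 1 read is worth 215 RPM. Each of the 21 pairs of libraries differed by a chi-square test of reads at an unadjusted p under 0.05, so none was treated as a duplicate. This test takes reads as independent and sets the libraries against counting noise alone. Its p depends on depth and on the number of names compared, and was highest, 0.03 over 64 names, for EVEN replicate 3 and the scrambled library. As a check of the cell type, miR-204-5p, a microRNA of pigment cells, had 156 reads in all and miR-509-3p had 6, while miR-211-5p, the defining melanocyte microRNA, and 3 more of the 6 melanocyte-lineage names were absent from the table. Summed markers of other cell types stayed at or below 741 RPM with X1 probes; the neuronal pair reached 1291 RPM with scrambled probes against 92.4 to 494 RPM with X1 probes, and its part in the results below was not tested.

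The 9 members together made up 8.34% ± 1.11 of the RPM total with X1 probes (SD, n = 6). The share was 7.59%, 9.23% and 7.93% in ODD replicates 1 to 3, and 9.60%, 9.0% and 6.71% in EVEN replicates 1 to 3. The scrambled library had 6.43% (299 reads, exact 95% interval 5.75% to 7.18%). All 6 X1-probe libraries were above the scrambled one, but the lowest, EVEN replicate 3, lay inside its counting interval. The group means of 8.25% ± 0.867 with ODD and 8.44% ± 1.52 with EVEN probes (SD, n = 3 each) differed by less than their spread. The deposited total counts let-7a-5p reads at each of 3 hairpins. Over a total with a single row per name the share was 11.4% ± 1.68 with X1 probes (SD, n = 6) and 8.59% with scrambled probes.

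let-7a-5p was the leading member and ranked between the second and the fourth most abundant microRNA in every library. It had 43245, 50693 and 42233 RPM in ODD replicates 1 to 3, 53917, 36917 and 33984 RPM in EVEN replicates 1 to 3, against 37659 RPM in the scrambled library. Its ODD and EVEN values overlapped, and the scrambled value lay below all 3 ODD captures and within the EVEN range. let-7f-5p and let-7i-5p followed at 15202 ± 7361 and 12869 ± 1529 RPM with X1 probes (SD, n = 6 each). Their order was not settled, since let-7f-5p was the higher in 4 of 6 X1-probe libraries and let-7i-5p in the scrambled one.

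**Figure D1:**
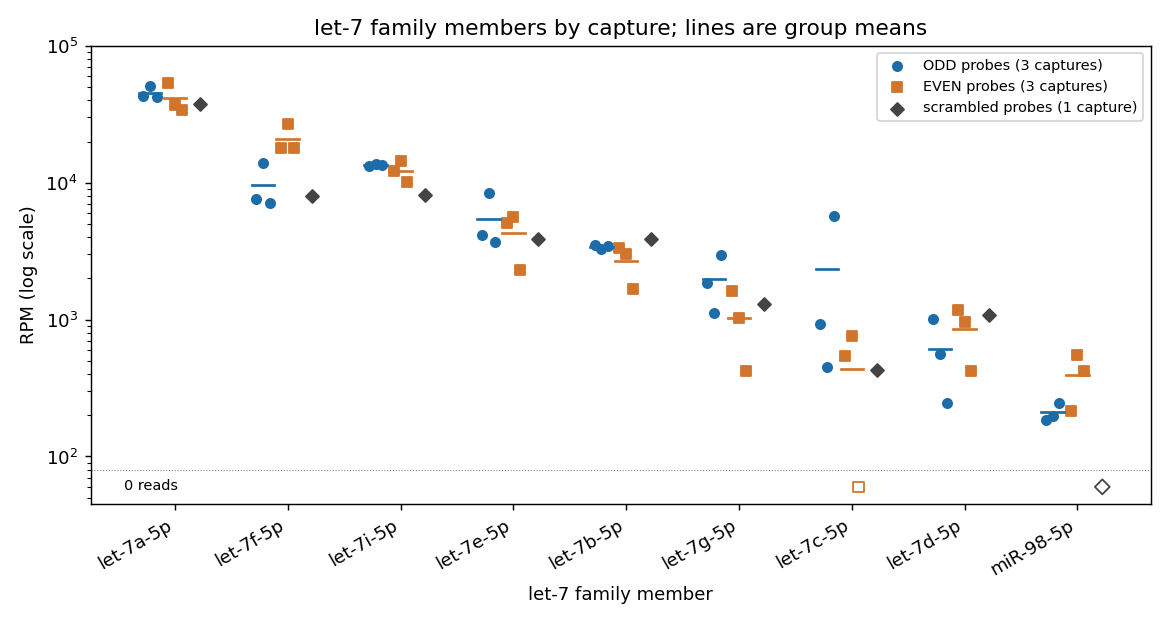
RPM on a log axis for the 9 let-7 members, ordered by their mean over the 6 X1-probe captures; filled points are captures, short lines are means of 3 captures, and open points at the bottom mark captures with 0 reads. let-7a-5p lies highest in all 7 captures, let-7f-5p is the member whose 3 ODD points all lie below its 3 EVEN points, and the scrambled capture has 0 reads of miR-98-5p.

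let-7e-5p stood next at 4878 ± 2088 RPM, then let-7b-5p at 3048 ± 691 RPM, let-7g-5p at 1501 ± 872 RPM and let-7c-5p at 1392 ± 2124 RPM with X1 probes (SD, n = 6 each). let-7d-5p had 733 ± 374 RPM and miR-98-5p 303 ± 149 RPM (SD, n = 6 each). The X1-probe ranges of let-7a-5p and let-7f-5p did not overlap, nor did those of let-7i-5p and let-7e-5p. let-7e-5p was above let-7b-5p, and let-7b-5p above let-7g-5p, in 6 of 6 X1-probe libraries. Below let-7g-5p the order rested on few reads: let-7c-5p had the larger mean but was above let-7d-5p in only 1 of 6 libraries. All 9 are of equal length, so the RPM values can be set side by side, although ligation and amplification can favour some sequences.

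The members differed in how steady they were. let-7i-5p varied least, with 13306, 13631 and 13584 RPM in ODD replicates 1 to 3 and 12269, 14353 and 10069 RPM in EVEN replicates 1 to 3. Its coefficient of variation over the 6 libraries was 11.9%, and its SD was 1.18 times the SD that counting error alone gives. let-7b-5p (1.09 times), let-7d-5p (1.22 times) and miR-98-5p (0.798 times) were likewise near counting error. let-7f-5p spread beyond it by 3.10 times within the ODD and 3.04 times within the EVEN captures, and by 5.23 times over all 6, which includes the difference between the probe sets. let-7a-5p spread by 1.9 times within ODD and 4.63 times within EVEN captures, and let-7e-5p (2.34 times) and let-7g-5p (2.14 times) had 6-library ratios above 2. let-7c-5p had the largest ratio, 6.60 times, from a single library: it had 924, 451 and 5680 RPM (10, 16 and 23 reads) in ODD replicates 1 to 3 and 538, 759 and 0 RPM (5, 11 and 0 reads) in EVEN replicates 1 to 3. ODD replicate 3, the shallowest library, stood far above the rest.

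let-7e-5p and let-7g-5p peaked in different ODD captures. let-7e-5p had 4158, 8449 and 3705 RPM in ODD replicates 1 to 3, 5058, 5589 and 2308 RPM in EVEN replicates 1 to 3, and 3873 RPM with scrambled probes. ODD replicate 2, the deepest library, held the highest value. let-7g-5p had 1848, 1127 and 2964 RPM in ODD replicates 1 to 3, 1614, 1035 and 420 RPM in EVEN replicates 1 to 3, and 1291 RPM with scrambled probes. For it ODD replicate 3 was the highest and EVEN replicate 3, with 2 reads, the lowest, and the ODD and EVEN values overlapped.

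With X1 probes against the scrambled probe no let-7 member was called by limma, the test fitted over all 242 microRNAs that passed the filter on low values, with adjustment over all of them and a threshold of 0.05. All 9 members passed that filter. The background was 2 of 242 called higher (0.826%) and 0 lower (0%). With an unadjusted p under 0.05 limma gave 3 higher members (let-7f-5p, let-7i-5p and miR-98-5p) and no lower one, where 17 of all 242 were higher (7.02%) and 4 lower (1.65%) at that threshold. voom weights on the recovered reads also called 0 of 9. Of the 9 differences 6 were above 0, with a median of 0.19 on the log2(RPM + 10) scale, where all tested microRNAs had 52.5% above 0 and a median of 0.10. Since the scrambled group has 1 library, its spread was taken to be that of the other groups.

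let-7i-5p had 8177 RPM in the scrambled library (38 reads, exact 95% interval 5793 to 11207) against 12869 RPM on average with X1 probes, a ratio of 1.57. It was higher in 6 of 6 libraries, but EVEN replicate 3 lay within the scrambled interval. By limma this was 0.64 on the log2 scale, with an SE of 0.31 and a 95% interval from 0.01 to 1.28 (adjusted p = 0.550). It did not pass under any of 18 other settings, with adjusted p from 0.209 to 0.976 by limma.

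For let-7f-5p the scrambled library had 7962 RPM (37 reads, exact 95% interval 5612 to 10958), and the X1-probe mean was 1.91 times as high. It was higher in 4 of 6 libraries, all 3 EVEN captures and ODD replicate 2. The log2 difference of 0.78 did not pass (limma, 95% interval 0.07 to 1.48, adjusted p = 0.446), nor did it in any of 18 other settings (0.160 to 0.759).

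miR-98-5p, the scarcest member, summed to 22 reads over the X1-probe captures, while the scrambled capture had 0. Reads numbered 2, 7 and 1 across ODD replicates 1 to 3, with 2, 8 and 2 across EVEN replicates 1 to 3. No order against the scrambled library is read from this, since any read lies above a count of 0, and no fold is given, because its X1-probe mean of 303 RPM is under the 646 RPM that 3 reads are worth in the scrambled library. The fitted log2 difference of 4.85 (limma, adjusted p = 0.310) follows the pseudocount and ran from 1.10 to 8.12 over 17 other settings. It passed in 2 of these, with no filter (adjusted p = 0.0316 by limma) and without the eBayes trend (0.0483), and its adjusted p reached 0.976 over the rest.

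Of all tested microRNAs, 11.2% had all 6 X1-probe libraries above the scrambled one, against 2 of the 9 members, let-7i-5p and miR-98-5p. For miR-98-5p any read meets this criterion. Its values lay under the 646 RPM that 3 scrambled reads are worth, and within the exact 95% interval of its scrambled count, 0 to 794 RPM. In the other direction 22.7% had all 6 below it, and let-7b-5p was the 1 member that did. let-7b-5p had 3511, 3267 and 3458 RPM in ODD replicates 1 to 3, 3336, 3036 and 1678 RPM in EVEN replicates 1 to 3, and 3873 RPM (18 reads, exact 95% interval 2297 to 6115) with scrambled probes. The X1-probe mean, 3048 RPM, lay within this interval of the scrambled library, while EVEN replicate 3 lay below it. The difference did not pass (limma, log2 difference -0.39, 95% interval -1.27 to 0.50, adjusted p = 0.673).

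For the other members the intervals show which differences the fit allows for, if the single scrambled library varied like the other groups. The log2 difference between X1 and scrambled probes was 0.19 for let-7a-5p (95% interval -0.40 to 0.78) and 0.22 for let-7e-5p (-0.69 to 1.14). It was -0.01 for let-7g-5p (-1.34 to 1.31), -0.74 for let-7d-5p (-2.45 to 0.97) and 0.08 for let-7c-5p (-2.85 to 3.02), members with 2 to 6 scrambled reads. let-7d-5p had 5 scrambled reads, 1076 RPM, and was above this level in 1 of 6 X1-probe libraries. The signs of let-7c-5p, let-7e-5p and let-7g-5p turned under at least 1 other setting.

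**Figure D2:**
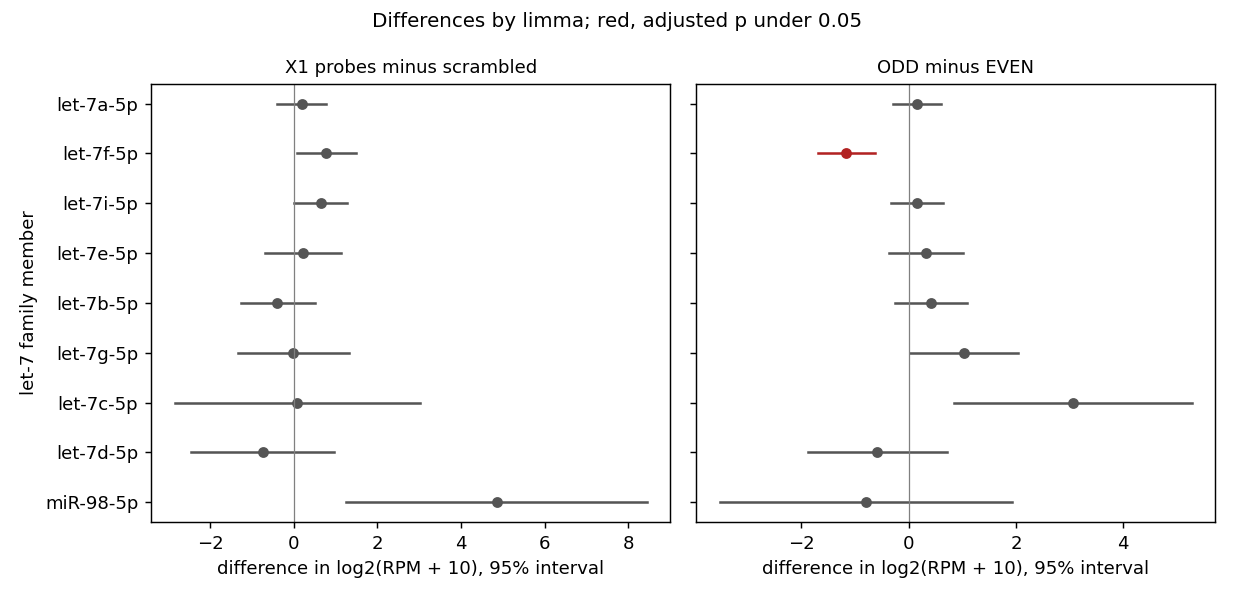
Difference in log2(RPM + 10) for each let-7 member by limma, with its 95% interval, for X1 probes minus scrambled (left) and ODD minus EVEN (right); red marks an adjusted p under 0.05. let-7f-5p at -1.16 on the right is the single red point, and the widest intervals belong to let-7c-5p and miR-98-5p, each with 0 reads in 1 capture.

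Between the probe sets, let-7f-5p fell with ODD relative to EVEN probes and was the 1 call among the 9 members. It had 7670, 13912 and 7162 RPM (83, 494 and 29 reads) in ODD replicates 1 to 3. It had 17865, 26773 and 17831 RPM (166, 388 and 85 reads) in EVEN replicates 1 to 3. The scrambled library, at 7962 RPM (37 reads), lay among the ODD captures. The highest ODD value, 13912 RPM, was below the lowest EVEN value, 17831 RPM, and the mean was 2.17 times as high with EVEN probes. The log2 difference, ODD minus EVEN, was -1.16 by limma, with an SE of 0.26 (adjusted p = 0.0242). The background was 1 of 242 lower (0.413%), which is let-7f-5p itself, and 0 higher (0%); 3.31% of tested microRNAs had all ODD below all EVEN libraries and 3.72% had them all above. voom weights on the recovered reads gave -1.04 (adjusted p = 0.0112 by limma). The call held in 9 of 18 other settings, with adjusted p from 0.000869 to 0.939 by limma, and ended without ODD replicate 1 (0.431), ODD replicate 3 (0.232) or EVEN replicate 2 (0.0577). It also ended under pseudocount 1 RPM (limma, adjusted p = 0.436), with no filter (0.603) and under quantile scaling (0.0809). By limma it ended likewise over a total with a single row per name (0.0771) and without the eBayes trend (0.939). So it did with the number in the sample descriptions as a block (limma, adjusted p = 0.0559).

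The scrambled library was then compared with the ODD and with the EVEN captures alone, so that both comparisons share it. For let-7f-5p the log2 difference was 1.36 with EVEN probes (limma, 95% interval 0.61 to 2.11, adjusted p = 0.0692) and 0.20 with ODD probes (95% interval -0.55 to 0.95, adjusted p = 0.798). The EVEN difference did not pass here but passed in 7 of 18 other settings (limma, adjusted p from 0.00239 to 0.731 over the 18), among them pseudocounts of 100 and 250 RPM and the fits without EVEN replicate 1 or EVEN replicate 3. The ODD difference passed in 0 of 18. By limma 0 of 9 members were called with either set, where 0.826% of the 242 were called higher and 0% lower with each. At an unadjusted p under 0.05 the higher members numbered 2 with each set, let-7i-5p and miR-98-5p with ODD, and let-7f-5p and miR-98-5p with EVEN probes. Over all 242 at that threshold, 18 were higher (7.44%) and 4 lower (1.65%) with ODD, and 15 were higher (6.2%) and 5 lower (2.07%) with EVEN probes. For miR-98-5p, with 0 scrambled reads, the log2 differences followed the pseudocount. They were 4.45 with ODD and 5.24 with EVEN probes, but 0.88 and 1.33 under pseudocount 250 RPM.

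let-7a-5p, a single base from let-7f-5p, did not follow it. Its log2 difference between ODD and EVEN probes was 0.15 (limma, 95% interval -0.29 to 0.60, adjusted p = 0.979). The ratio of let-7a-5p to let-7f-5p reads was 5.64, 3.64 and 5.90 in ODD replicates 1 to 3, 3.02, 1.38 and 1.91 in EVEN replicates 1 to 3, against 4.73 in the scrambled library. All EVEN ratios were below all others. Both members summed to 54972 ± 8377 RPM in the ODD captures and to 62429 ± 10043 RPM in the EVEN captures (SD, n = 3 each), and these ranges overlapped. The rule by which the authors assigned reads to members is not given in the sources used here, so reads with a mismatch could be split between such close neighbours. Whether this happened, or differed between captures, was not tested.

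**Figure D3:**
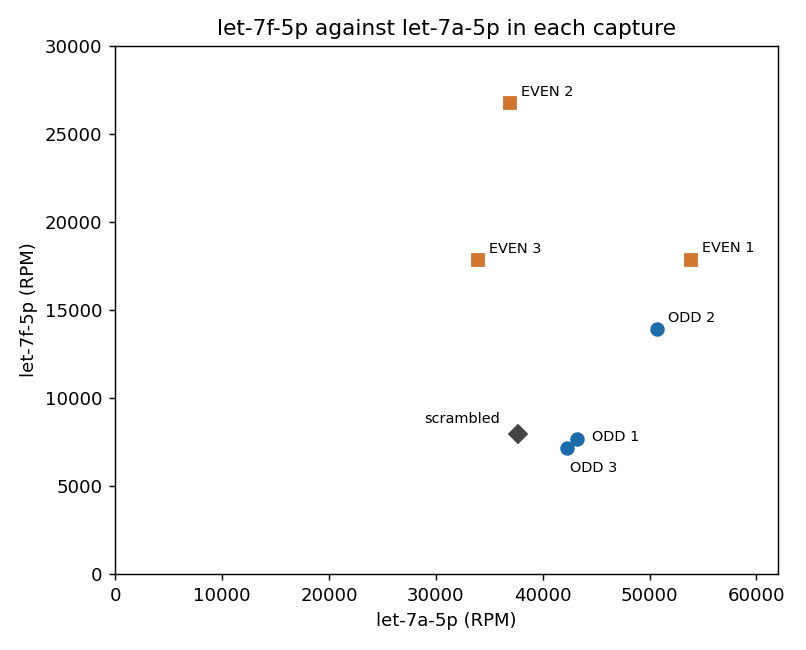
let-7f-5p against let-7a-5p, both in RPM on linear axes from 0, with 1 point per capture. The 3 EVEN captures lie at 17831 RPM of let-7f-5p or above at both low and high let-7a-5p, while the scrambled capture and ODD replicates 1 and 3 lie together between 7162 and 7962 RPM.

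The same pattern showed in the make-up of the let-7 reads, which does not depend on the library total. It uses the same let-7f-5p reads as the test above, so it is not a separate result. let-7f-5p took 10.1%, 15.1% and 9.03% of the let-7 reads in ODD replicates 1 to 3, and 18.6%, 29.8% and 26.6% in EVEN replicates 1 to 3. In the scrambled library it took 12.4% (exact 95% interval 8.86% to 16.7%). The mean was 11.4% ± 3.22 with ODD and 25.0% ± 5.74 with EVEN probes (SD, n = 3 each). let-7a-5p took 55.1% ± 1.87 with ODD, 49.3% ± 7.66 with EVEN (SD, n = 3 each) and 58.5% with scrambled probes. Its share was lowest in EVEN replicate 2, at 41.0%. let-7i-5p kept 16.5% ± 1.5 with ODD, 14.6% ± 1.63 with EVEN (SD, n = 3 each) and 12.7% with scrambled probes.

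**Figure D4:**
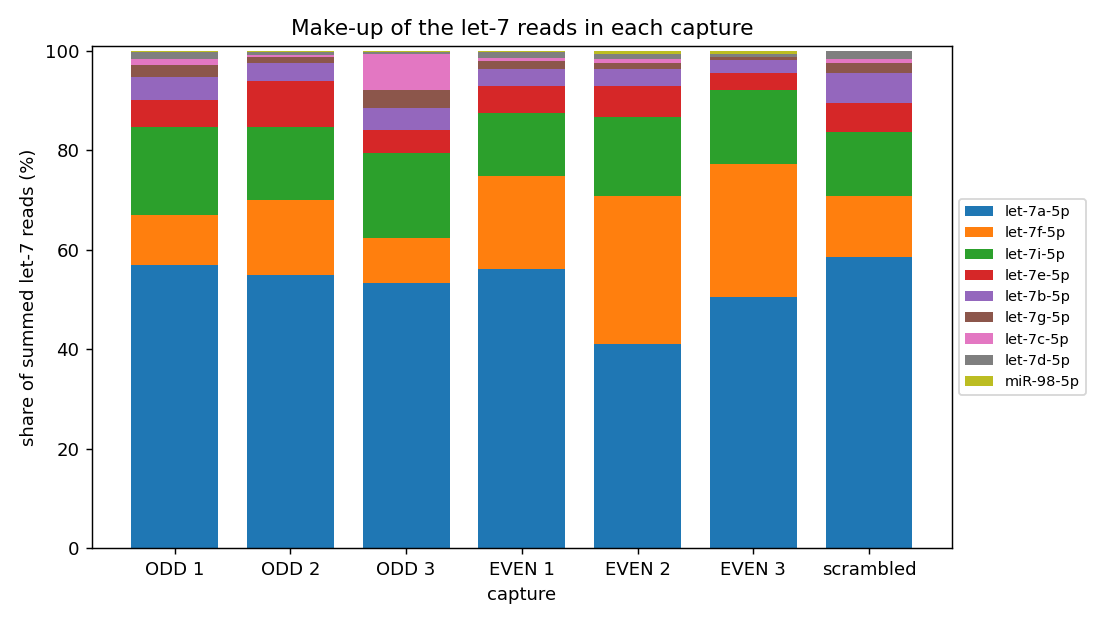
Share of each member in the summed reads of the 9 let-7 members, in percent, stacked for each of the 7 captures. The let-7f-5p band runs from 18.6% to 29.8% in the EVEN captures and from 9.03% to 15.1% in the ODD captures, and let-7c-5p is widest in ODD replicate 3 at 7.17%.

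No other member passed between the probe sets. let-7c-5p had the largest difference, 3.06 on the log2 scale (limma, 95% interval 0.84 to 5.28, adjusted p = 0.883). It rested on 49 ODD reads and 16 EVEN reads, from libraries of unequal depth. The size followed the pseudocount, at 4.17 with 1 RPM and 1.54 with 250 RPM, and was 0.79 with voom weights on the recovered reads. let-7c-5p was called without EVEN replicate 1 (3.94, adjusted p = 0.000869 by limma) and without EVEN replicate 2 (4.19, adjusted p = 0.00358), and over all 18 settings the adjusted p reached 0.999. The difference was 2.02 without ODD replicate 3, 1.05 without EVEN replicate 3, where it had 0 reads, and 0.01 without both. let-7g-5p averaged 1979 ± 926 RPM in the ODD and 1023 ± 597 RPM in the EVEN captures (SD, n = 3 each; limma, log2 difference 1.04, 95% interval 0.03 to 2.04, adjusted p = 0.909). let-7e-5p (0.33), let-7b-5p (0.41) and let-7i-5p (0.16) also had differences above 0, and let-7d-5p (-0.58) and miR-98-5p (-0.80) below 0, with adjusted p of 0.979 or above by limma. In all, 6 of 9 members were above 0, with a median of 0.16, against 54.5% and 0.07 over all tested microRNAs.

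Members made from a common primary transcript could be set side by side. On chromosome 9 let-7d-5p averaged 609 ± 387 RPM in the ODD and 856 ± 394 RPM in the EVEN captures (SD, n = 3 each), a ratio of 1.41. Its log2 difference, ODD minus EVEN, went from -0.58 to -0.05 without ODD replicate 3, where it had 1 read. let-7a-5p, from the same transcript and from 2 others, had a ratio of EVEN to ODD of 0.917, and let-7b-5p, beside the chromosome 22 copy of let-7a, one of 0.787. miR-98-5p, beside the second let-7f copy on the X chromosome, averaged 210 ± 32.9 RPM in the ODD and 396 ± 170 RPM in the EVEN captures (SD, n = 3 each), on 10 and 12 reads. No fold is given for it, since it had fewer than 3 reads in 2 of 3 captures of each set. None of these 4 members passed, and their ODD and EVEN libraries overlapped. The table cannot separate the let-7f copies: the rows of let-7f-1 and let-7f-2 held 1267 and 1282 reads, nearly the same reads counted at both.

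The other arms of the let-7 hairpins, which are mostly degraded when the mature strand is loaded, were almost absent. Of 11 such names 2 had reads: let-7d-3p with 4 X1-probe reads and let-7i-3p with 1, both with 0 scrambled reads. let-7d-3p was the 1 arm tested and did not pass in any comparison.

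Neighbours that are made from the same transcripts as let-7c, let-7e and the chromosome 11 copy of let-7a were abundant, and none of the 4 tested passed in any comparison. miR-100-5p, next to let-7a-2, averaged 22980 ± 3635 RPM over the X1-probe captures (SD, n = 6), against 24317 RPM in the scrambled one. miR-125b-5p, which is made from the let-7a-2 and let-7c clusters, averaged 5604 ± 813 RPM (SD, n = 6) against 8823 RPM, and was below the scrambled library in 6 of 6 (limma, log2 difference -0.67, 95% interval -1.39 to 0.06, adjusted p = 0.660). From the let-7e cluster, miR-99b-5p had 3777 ± 1200 RPM and miR-125a-5p 2896 ± 999 RPM (SD, n = 6 each), against 3013 and 3873 RPM with scrambled probes. miR-99a-5p, the partner of let-7c, had 3 reads in all and was not tested.

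Of the 61 microRNAs outside the family with at least 1000 RPM on average, those most like the summed family over the 7 libraries were miR-125b-1-3p, miR-221-3p and miR-26a-5p. Their Pearson correlations on the log2(RPM + 10) scale were 0.78, 0.72 and 0.66. miR-125b-1-3p averaged 7578 ± 1165 RPM in the ODD and 7811 ± 2051 RPM in the EVEN captures (SD, n = 3 each), against 4734 RPM in the scrambled one. Most like let-7f-5p were miR-196a-5p (0.89), miR-27a-3p (0.74) and miR-181b-5p (0.68). miR-196a-5p averaged 906 ± 288 RPM in the ODD and 1205 ± 46.6 RPM in the EVEN captures (SD, n = 3 each), and its log2 difference of -0.45 did not pass (limma, adjusted p = 0.979). These correlations are descriptions over 7 points that share library depth and the RPM scale, picked as the highest of 61.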

How the data were processed

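Small RNA from 7 captures was analysed. The authors deposited RPM per hairpin and mature microRNA pair, 498 rows with decimal commas. CASAVA 1.8 and cutadapt 1.2.1 were used, per the submitters' processing notes; no source used here names the aligner, counting rule, annotation or build. Each column summed to 1000000, and 100% of the values were whole multiples of 1 read's worth within 1e-06 reads, which gave reads and depths. Where a name had several hairpin rows (17 names), the row with the most RPM was used.

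limma 3.58.1 (R 4.3.3) was fitted to log2(RPM + 10) of the 242 microRNAs with at least 10 RPM in at least 3 libraries, with 3 group means, eBayes with trend and two-sided p-values adjusted by Benjamini-Hochberg (threshold 0.05). Differences on this log2(RPM + 10) scale understate changes of low microRNAs, except against 0 reads, where the pseudocount sets them. The fit was also run on simulated reads as a self-test. These had counting error alone and planted changes larger than that of let-7f-5p, so they do not bear on its call. Intervals of reads are exact Clopper-Pearson 95% intervals (SciPy 1.17.1); they and the 3-read floor cover counting error only, since reads are not independent molecules. The members, lists and tests were chosen with earlier results of these data known. Named microRNAs were the members, the detected names of the 3 lists of related microRNAs (other arms, cluster neighbours, same seed) and the 3 most correlated names of at least 1000 RPM each for the family sum and for let-7f-5p; markers of other cell types were a further list. Alternatives were other pseudocounts, filters, scalings, hairpin rows and variance models, a block by the number in the sample descriptions and leaving out libraries. That block is called the replicate block below. Planned count models were not run; voom was added in their place, after the data were seen.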

Additional observations from a re-analysis of the deposited data

Results flagged for a closer look

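let-7f-5p differed between the ODD and EVEN effects against the scrambled library by -1.16 on the log2 scale, the test given above.

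Among the 6 X1-probe libraries, 3 of 19 sets of values had a library far from the others, where chance flags about 1 in 20. The sets are not independent, and 2 of the 3 rest on the same 23 reads of let-7c-5p, as RPM and as a share. let-7c-5p stood at 5680 RPM in ODD replicate 3, where the nearest library had 924 RPM. Its share of let-7 reads there was 7.17%, against 1.22% in the nearest. let-7b-5p stood at 1678 RPM, 8 reads, in EVEN replicate 3, where the nearest library had 3036 RPM.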

How the results depend on the processing

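The number of members called higher with X1 probes rose from 0 to 1, by miR-98-5p, when the filter or the eBayes trend was dropped. The number called higher with EVEN against scrambled probes rose from 0 to 1 under pseudocounts of 100 and 250 RPM and a mean of at least 1000 RPM (let-7f-5p) and with no filter and without the trend (miR-98-5p), and was 0 to 1 when libraries were left out. The ODD against EVEN call of let-7f-5p went from 1 to 0 under pseudocount 1, with no filter, under quantile scaling, with RPM over a single row per name, without the trend and with the replicate block, and was 0 to 1 when libraries were left out, as was the number called higher (let-7c-5p). The log2 difference of let-7f-5p stayed between -1.46 and -0.96.

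Same-numbered ODD and EVEN captures did not deviate together (correlations -0.04, 0.07 and 0.02), and the main fit did not take the numbers as pairs. Counting noise at this depth lowers such correlations, so they cannot show that the captures were unpaired. With the replicate block let-7f-5p differed by -1.16 (limma, adjusted p = 0.0559). The block turned the X1 against scrambled difference of let-7c-5p to -0.88 and of let-7e-5p to -0.40, and the ODD against scrambled difference of let-7f-5p to -0.07. let-7c-5p also turned to -0.45 under pseudocount 1 RPM, and let-7g-5p to 0.03 under pseudocount 250, 0.17 under quantile scaling and 0.02 over a single row per name. With libraries left out, the X1 against scrambled difference ran from -0.48 to 1.09 for let-7c-5p and from -0.23 to 0.25 for let-7g-5p, the ODD against EVEN difference of let-7e-5p from -0.07 to 0.57, and the ODD against scrambled difference of let-7f-5p from -0.10 to 0.38. In the blocked fit the scrambled library shares its block with ODD and EVEN replicate 3 alone. Its difference from X1 probes therefore comes from those captures only. The ODD against scrambled difference combines that value with the ODD against EVEN difference. The cause of the changes under the other settings was not tested.

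The share of the family in the total moved from 8.25%, 8.44% and 8.34% (ODD, EVEN, X1) to 18.3%, 18.8% and 18.5% when all hairpin rows were summed, which counts let-7a-5p 3 times, and to 11.3%, 11.6% and 11.4% over a single row per name. Summing rows also moved the shares within the family to 70.3% for let-7a-5p, 1.65% for let-7b-5p, 0.789% for let-7c-5p, 0.389% for let-7d-5p, 2.57% for let-7e-5p, 0.82% for let-7g-5p, 7.02% for let-7i-5p and 0.169% for miR-98-5p. Without ODD replicate 3 the mean share of let-7c-5p went from 1.71% to 0.622%. The planned count models (quasi-likelihood and size-factor tests on reads) were not run. The scrambled library could not be left out. Members under about 10 reads per library are limited by depth.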

Other observations

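The hairpin rows of one name held nearly the same reads. For let-7a-5p they held 3807, 3812 and 3817 reads over the 7 libraries. For let-7f-5p, let-7f-2 had 5 reads more than let-7f-1 in EVEN replicate 3 (85 against 80) and 4 more in EVEN replicate 2 (388 against 384). It was also ahead in EVEN replicate 1 (166 against 164), ODD replicate 2 (494 against 491) and ODD replicate 3 (29 against 28). Both rows held the same number in ODD replicate 1 and in the scrambled library.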
